A study of Mus musculus with 28 samples.

Results

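Gene expression was followed from day 3 to day 6 in the double-negative cells of a reprogramming culture, the sorted cells that carried neither Thy1, a surface protein of fibroblasts, nor SSEA1, a carbohydrate antigen of mouse pluripotent cells. The members were defined by their labels, in a choice made with earlier results of these data known. They are 4 of the 28 arrays of the series, 2 of day 3 and 2 of day 6, each pair named M2 and M3. The cultures were fibroblasts of day 13.5 embryos of a C57BL6/129 strain that carried a cassette of the reprogramming factors Oct4, Klf4, Sox2 and Myc (OKSM) together with a Rosa26-M2rtTA allele, which turns the cassette on under doxycycline. All induced cells grew with doxycycline in medium with serum and LIF. Double-negative cells were compared with the SSEA1+ and the Thy1+ cells of the same days (2 arrays per fraction and day), and the lone double-negative arrays of days 9 and 12 and the 2 arrays of uninduced fibroblasts (MEFs) are given as levels. Per the labels the mice had 1 copy of cassette and allele (het/het) or 2 copies (ho/ho), without saying which arrays came from which, and the meaning of M2 and M3 is not stated. Nothing in the labels ties the replicate arrays to separate animals or cultures, so the p-values rest on differences between arrays that could be technical replicates.

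When the factors are switched on in fibroblasts, most cells first lose mesenchymal gene products and divide faster. A minority then gains epithelial adhesion proteins, and the transcription factors of pluripotent cells come on last. Loss of Thy1 is an early step of this course and gain of SSEA1 a later one, so the double-negative gate holds cells that have left the fibroblast state by surface marker without reaching the next one. It also holds any cell type that never carries either marker, and in such bulk RNA fewer cells of a type and less RNA per cell cannot be told apart.

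The transcripts behind the gate were followed first. Thy1 stood at 9.71 and 9.92 on the day 3 arrays and 10.46 and 9.61 on the day 6 arrays on the log2 scale. These values lay below those of the Thy1+ cells, 10.82 and 10.90 at day 3 and 11.95 and 11.49 at day 6, and above those of the SSEA1+ cells, 9.35 and 9.27 and 9.57 and 9.45. Fut9, whose enzyme builds the SSEA1 epitope, stood at 3.61 and 3.66 on the day 3 arrays and 3.54 and 3.72 on the day 6 arrays, against 5.25 and 5.41 and then 6.20 and 5.77 in SSEA1+ cells. Both transcripts followed the sort, and for Thy1 the M2 array of day 6 had the highest level of the 4. RNA quality was alike on the 4 arrays, with 3′ probe sets above 5′ ones by 0.732 to 0.791 for Actb and 0.765 to 0.874 for Gapdh. The 18S control signal stood at 10.622 and 9.995 at day 3 and at 11.176 and 10.691 at day 6. The days differed in this ribosomal signal without overlap, by a narrow margin, and its part in the results was not tested. The arrays of a pair differed by a root mean square of 0.157 at day 3 and 0.21 at day 6, close to the other groups of these days except day 6 Thy1+ cells (0.656).

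Between day 3 and day 6 the double-negative cells gained transcripts of immediate early transcription factors, of some proteoglycans, of 3 members of the IGF system and of a few early pluripotency genes, and lost transcripts of mitosis and DNA replication. A gene was called where limma's Benjamini-Hochberg adjusted p over all genes was under 0.05 and the difference at least 2-fold. Of 11807 genes, 243 rose (2.06%) and 140 fell (1.19%), 383 in all (3.24%), and the median over all genes was 0.02. When each of the 4 arrays was left out in turn, 151 of the 243 and 73 of the 140 were called in all 4 fits. At an unadjusted p under 0.05 there were 2523 genes (21.4%). The arrays of day 6 were both above those of day 3 in 35% of all genes and both below them in 31.3%.

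**Figure D1:**
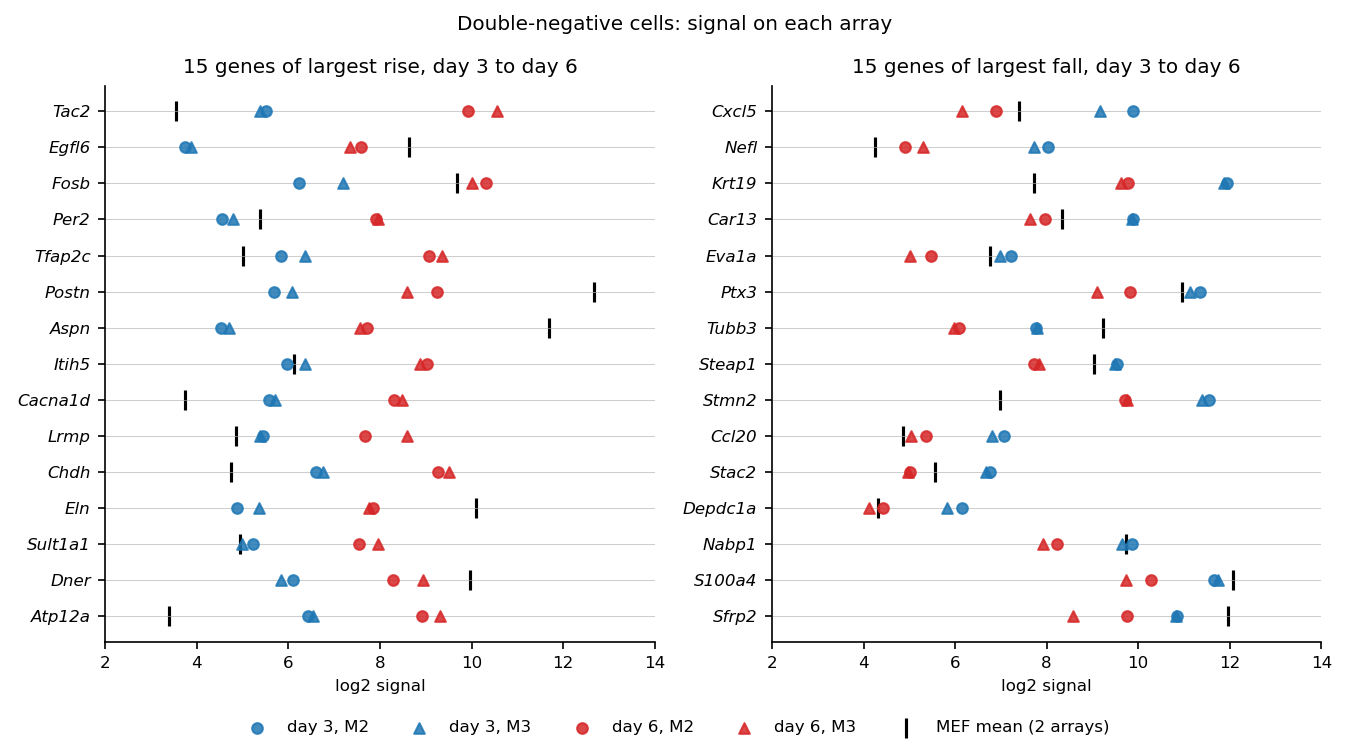
Log2 signal (horizontal axis) of the 15 genes that rose most and the 15 that fell most in double-negative cells, with 1 point per array (blue day 3, red day 6; circles M2, triangles M3) and a tick at the MEF mean of 2 arrays. The days are separate for every gene, as the choice of genes required; Tac2 moves from 5.52 and 5.38 to 9.92 and 10.56, and Cxcl5 from 9.89 and 9.16 to 6.90 and 6.15.

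Immediate early genes, which growth factors and stress switch on without new protein synthesis, held more called risers than any other of the 45 lists read here. Of 24 measured transcription factors and partners of this class, 12 rose and 0 fell, against a background of 2.06% of all genes that rose, and at an unadjusted p under 0.05 15 were higher and 0 lower, where 21.4% of all genes passed in either direction. Their median change was 0.97, beside 0.02 over all genes, and 22 of the 24 were higher on both day 6 arrays than on both day 3 arrays, as were 35% of all genes. Fosb, a subunit of the AP-1 factor, stood at 6.24 and 7.20 on the day 3 arrays and 10.32 and 10.00 on the day 6 arrays. Both day 6 arrays were far above both day 3 arrays, although the day 3 arrays also lay apart from each other. Its rise was 3.44 (log2, SE 0.41, adjusted p = 0.000125). Egr2, a zinc finger factor, stood at 8.24 and 8.68 on the day 3 arrays and 11.08 and 10.83 on the day 6 arrays, and its rise was 2.49 (log2, SE 0.37, adjusted p = 0.000723). The days of Egr2 did not overlap, and the gap between them was several times that between the arrays of a day. Nr4a1, an orphan nuclear receptor, stood at 8.98 and 9.27 on the day 3 arrays and 10.61 and 10.50 on the day 6 arrays and rose by 1.43 (log2, SE 0.23, adjusted p = 0.00121). Ier3, a survival factor induced by stress, stood at 7.95 and 7.91 on the day 3 arrays and 9.84 and 9.89 on the day 6 arrays and rose by 1.93 (SE 0.27).

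The upstream sequences of 2 of these genes are shown because the list rose together and because Nr4a1 held the most copies of a common response element among those printed. They are the 250 bases before the start of the gene, 5′ to 3′ on the gene's strand, from RefSeq on GRCm38.p6, at chr7:19310046-19310295, minus strand and chr15:101266596-101266845, plus strand. Capitals mark TGACG, the core that CREB and ATF proteins bind, or CGTCA, the same letters on the other strand.
Fosb: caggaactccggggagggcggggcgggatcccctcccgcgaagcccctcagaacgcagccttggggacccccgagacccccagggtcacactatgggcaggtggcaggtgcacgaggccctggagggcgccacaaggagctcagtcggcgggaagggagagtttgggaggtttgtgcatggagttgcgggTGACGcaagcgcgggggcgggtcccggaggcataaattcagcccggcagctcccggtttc
Nr4a1: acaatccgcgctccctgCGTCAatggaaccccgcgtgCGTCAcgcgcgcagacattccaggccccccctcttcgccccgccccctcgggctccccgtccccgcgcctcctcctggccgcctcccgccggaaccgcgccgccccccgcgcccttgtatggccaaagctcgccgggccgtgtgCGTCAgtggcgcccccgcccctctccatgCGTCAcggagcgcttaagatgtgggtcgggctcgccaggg
The Fosb window held 1 match, 60 bases before the start, and the Nr4a1 window 4, at 233, 213, 69 and 40 bases before it. Such a match on either strand occurred in 5 of the 9 risers of the list with a window in the table (55.6%), in 6 of 10 members that were not called (60%) and in 23.7% of 9430 windows of genes on the array. At least 2 matches occurred in 11.1% of the first, 40% of the second and 4.18% of the last. The match did not separate the members that rose from those that did not. It is a description of letters and not of bound sites.

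The rest of the list split by size. Egr1, the best known growth factor response gene, rose by 1.29 (SE 0.16), the AP-1 subunits Junb by 1.14 and Jun by 1.25, and Atf3, a stress-induced repressor, by 1.67. Ier2 rose by 1.54, the antiproliferative gene Btg2 by 1.50, the cytoskeletal gene Arc by 1.20 and the small Maf factor Maff by 1.05. Jun, Atf3, Ier2 and Maff each lost the call when 1 of the arrays was left out, and 8 of the 12 kept it throughout. Fos stood at 11.48 and 11.76 on the day 3 arrays and 12.57 and 12.43 on the day 6 arrays, a difference of 0.88 that passed the test (adjusted p = 0.00579) but not the fold. Fosl1 (−0.08), Fosl2 (0.12) and Nr4a2 (0.13) did not pass the test. At day 3 the list lay below MEFs, with a median level of −0.998 and −0.744 relative to the MEF mean on M2 and M3, and at day 6 it stood at 0.17 and 0.12. MEFs were thus about as high in these transcripts as day 6 cells: Fosb stood at 9.93 and 9.45 and Egr2 at 10.75 and 10.67 there.

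Feedback inhibitors of MAP kinase signalling, which the same pathway induces, gave few calls. Of 13 measured, 2 rose, with a median of 0.31, against 2.06% of all genes that rose. At an unadjusted p under 0.05 6 were higher and 0 lower (21.4% of all genes in either direction). Dusp6, the phosphatase of ERK, stood at 8.20 and 7.90 on the day 3 arrays and 9.54 and 9.34 on the day 6 arrays and rose by 1.39 (log2, SE 0.21, adjusted p = 0.000921). Spry4, a receptor tyrosine kinase inhibitor, stood at 5.86 and 5.84 on the day 3 arrays and 6.99 and 7.15 on the day 6 arrays and rose by 1.22 (log2, SE 0.18, adjusted p = 0.00082), and its call was lost when its probe sets were averaged. Spry1 came close to the fold at 0.89 (adjusted p = 0.00396), while Dusp1, often induced together with Fos, showed 0.41 (adjusted p = 0.172).

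The opposite movement was in the cell cycle. Of 35 measured genes of mitosis, 22 fell and 0 rose, against 1.19% of all genes that fell. At an unadjusted p under 0.05 33 were lower and 0 higher (21.4% of all genes in either direction), and all 35 were lower on both day 6 arrays than on both day 3 arrays (31.3% of all genes). The median change was −1.09. Ccnf, a cyclin-like F-box protein, stood at 7.88 and 7.87 on the day 3 arrays and 6.03 and 6.50 on the day 6 arrays and fell by 1.61 (log2, SE 0.19, adjusted p = 0.000105). Aurka, the kinase of the spindle poles, stood at 9.44 and 9.38 on the day 3 arrays and 7.82 and 7.95 on the day 6 arrays and fell by 1.52 (log2, SE 0.16, adjusted p = 4.05e-05). Plk1, a kinase of mitotic entry and exit, stood at 8.61 and 8.63 on the day 3 arrays and 7.18 and 7.04 on the day 6 arrays and fell by 1.51 (log2, SE 0.14, adjusted p = 2.01e-05). In each of these genes the 2 arrays of a day nearly coincided at day 3 and the days were separate by more than 1 log2 unit.

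Bub1, a kinase of the spindle checkpoint, stood at 9.60 and 9.78 on the day 3 arrays and 8.28 and 8.40 on the day 6 arrays and fell by 1.35. Ccnb2, a mitotic cyclin, stood at 10.22 and 10.30 on the day 3 arrays and 9.12 and 8.94 on the day 6 arrays and fell by 1.23. Cdc20, the activator of the anaphase-promoting complex, stood at 10.16 and 10.12 on the day 3 arrays and 8.95 and 9.10 on the day 6 arrays and fell by 1.12. The days did not overlap in any of the 3. The kinesins Kif23 (−1.55), Kif20a (−1.21) and Kif2c (−1.16), the kinetochore gene Ndc80 (−1.25) and the spindle midzone gene Prc1 (−1.15) also fell. Cdk1, the kinase of mitosis, showed −0.90 (adjusted p = 0.00856), short of the fold. Mki67, the Ki-67 antigen, showed −0.84 (adjusted p = 0.105), and Cks2 (−0.31) and Cdc25b (−0.27) were at the weak end of the list. Of the 22 that fell, 14 kept the call when each array was left out, and the count ranged from 16 to 19 across those fits. Bub1, Kif23 and Cenpf were not called when the mean of a gene's probe sets was used.

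The level behind this fall was high. Over the 35 genes the median level lay 1.75 and 1.73 above the MEF mean on the day 3 arrays and 0.63 and 0.71 above it on the day 6 arrays. Double-negative cells of day 6 still had more mitotic transcript than uninduced fibroblasts. The lone arrays of day 9 and day 12 stood 1.28 and 0.90 above MEFs, higher than both day 6 arrays and lower than both day 3 arrays.

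Upstream windows of 4 of the mitotic genes are shown because CCAAT, the box that NF-Y binds and that mitotic promoters are known for, recurred in them. They are from RefSeq on GRCm38.p6, the 250 bases before the start 5′ to 3′ on the gene's strand, at chr9:70421555-70421804, minus strand (Ccnb2), chr2:172370571-172370820, minus strand (Aurka), chr2:127831860-127832109, minus strand (Bub1) and chr4:118437344-118437593, minus strand (Cdc20). Capitals mark CCAAT, or ATTGG, the same letters on the other strand.
Ccnb2: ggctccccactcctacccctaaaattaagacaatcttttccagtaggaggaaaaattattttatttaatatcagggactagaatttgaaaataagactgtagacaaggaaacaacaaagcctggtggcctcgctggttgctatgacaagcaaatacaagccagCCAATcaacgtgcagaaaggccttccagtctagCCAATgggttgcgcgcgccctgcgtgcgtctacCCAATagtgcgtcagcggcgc
Aurka: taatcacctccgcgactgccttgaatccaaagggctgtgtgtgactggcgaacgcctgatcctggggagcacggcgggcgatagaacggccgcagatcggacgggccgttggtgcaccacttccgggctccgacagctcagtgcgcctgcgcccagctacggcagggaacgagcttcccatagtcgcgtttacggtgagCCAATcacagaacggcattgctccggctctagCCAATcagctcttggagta
Bub1: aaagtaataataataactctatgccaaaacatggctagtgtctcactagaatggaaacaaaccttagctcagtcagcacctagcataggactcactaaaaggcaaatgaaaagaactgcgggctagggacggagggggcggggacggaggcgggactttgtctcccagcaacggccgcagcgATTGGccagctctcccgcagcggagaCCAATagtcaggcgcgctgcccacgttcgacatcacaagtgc
Cdc20: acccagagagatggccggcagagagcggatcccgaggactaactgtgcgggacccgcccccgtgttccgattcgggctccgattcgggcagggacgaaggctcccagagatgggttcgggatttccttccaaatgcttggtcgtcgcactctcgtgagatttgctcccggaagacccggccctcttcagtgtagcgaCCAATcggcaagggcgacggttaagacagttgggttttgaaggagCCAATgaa
Ccnb2 had 3 matches, at 87, 54 and 21 bases before the start, and the other windows 2 each, at 51 and 19 bases for Aurka, 68 and 42 for Bub1 and 53 and 8 for Cdc20. A match on either strand occurred in 15 of 19 windows of mitotic genes that fell (78.9%), 9 of 10 of those not called (90%) and 36.1% of the windows of genes on the array. At least 2 matches occurred in 47.4% of the first, 70% of the second and 12.4% of the last. The box was common to the mitotic list as a whole and did not mark the members that fell.

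DNA replication followed mitosis at a smaller size. Of 37 measured genes of replication and S phase, 8 fell and 0 rose, against 1.19% of all genes that fell, with a median of −0.79. At an unadjusted p under 0.05 31 were lower and 0 higher (21.4% of all genes in either direction), and 36 were lower on both day 6 arrays (31.3% of all genes). All 8 kept the call when each array was left out. Cdc6, which loads the replicative helicase, stood at 7.22 and 7.06 on the day 3 arrays and 5.62 and 5.33 on the day 6 arrays and fell by 1.66 (log2, SE 0.18, adjusted p = 5.31e-05). Ccne2, a cyclin of S phase entry, stood at 7.93 and 7.97 on the day 3 arrays and 6.54 and 6.36 on the day 6 arrays and fell by 1.50 (log2, SE 0.27, adjusted p = 0.00276). Both genes were back near their MEF arrays, 5.26 and 5.47 for Cdc6 and 6.93 and 6.91 for Ccne2. Rrm2, a subunit of ribonucleotide reductase, fell by 1.35, the helicase subunit Mcm5 by 1.15 and thymidine kinase Tk1 by 1.14. Pcna, the sliding clamp, showed −0.40 (adjusted p = 0.567), and Ccne1, the partner of Ccne2, −0.08 (adjusted p = 0.9). Dnmt1, the methyltransferase that copies DNA methylation at replication, belonged to the chromatin list, of whose 38 genes 2 fell (1.19% of all genes). It stood at 9.82 and 9.70 on the day 3 arrays and 8.65 and 8.39 on the day 6 arrays and fell by 1.24 (log2, SE 0.13, adjusted p = 4.05e-05). Hmga2, a chromatin protein of proliferating embryonic cells, fell by 1.12, and its call was lost without the day 6 M3 array, which left 1 of the 2.

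Genes of p53, Ink4/Arf and growth arrest were mostly not called. The list also holds the D cyclins Ccnd1, Ccnd2 and Ccnd3 and Mdm2, which do not restrain division. Of its 27 measured genes, 3 rose, with a median of 0.11, against 2.06% of all genes that rose. At an unadjusted p under 0.05 6 were higher and 1 lower, close to the share of all genes (21.4% in either direction). Cdkn1c, the imprinted inhibitor p57 of cyclin-dependent kinases, stood at 7.08 and 7.62 on the day 3 arrays and 9.21 and 8.81 on the day 6 arrays and rose by 1.66 (log2, SE 0.18, adjusted p = 6.24e-05). It was lower at day 3 than in MEFs (9.65 and 9.75) and by day 6 had come back to within 1 log2 unit of them. Gadd45b and Gadd45g, stress-induced growth arrest genes, rose by 1.23 and 1.10, the second losing the call without either day 6 array or without the day 3 M2 array. Cdkn2b (−0.09), Cdkn1b (0.16) and Ccng1 (−0.02), a p53 target, did not pass the test. Cdkn1a and Cdkn2a were not called.

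**Figure D2:**
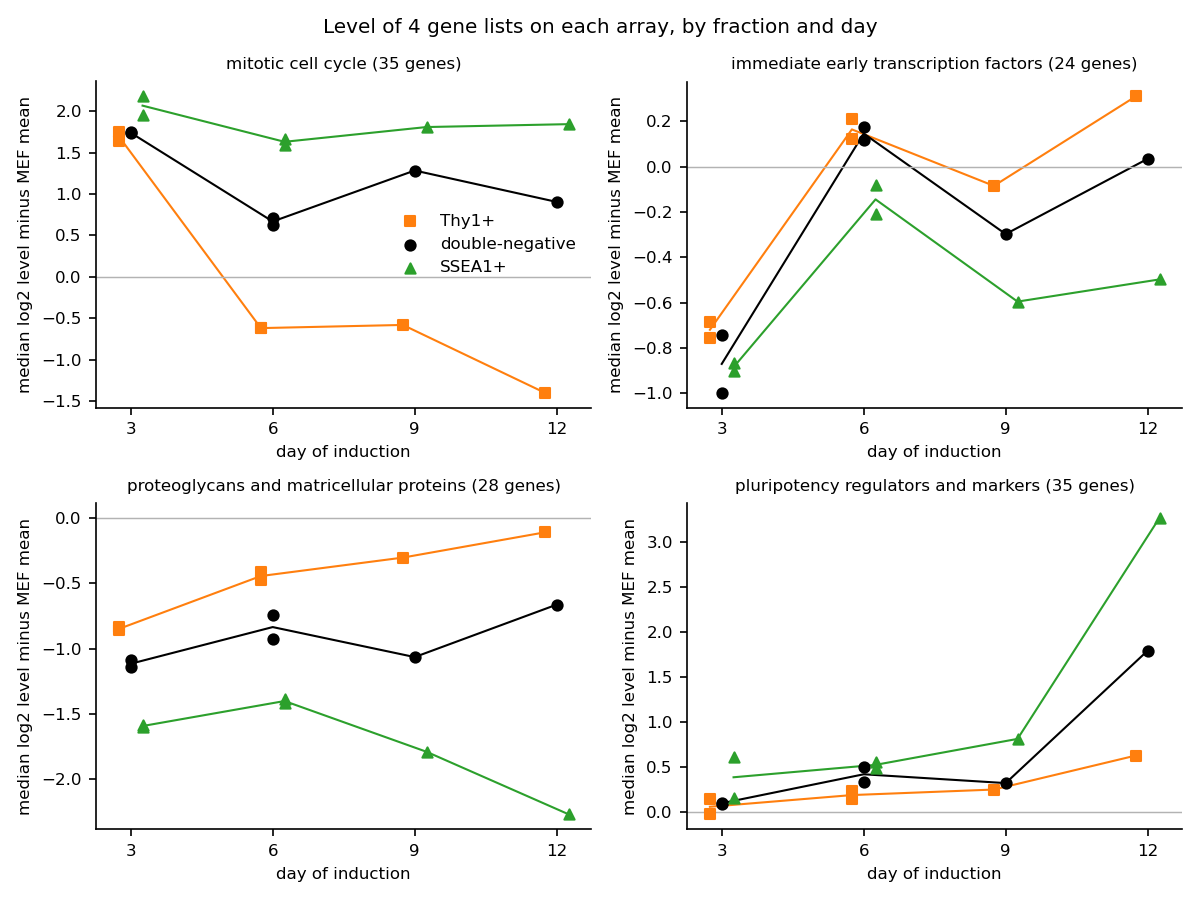
Median over the members of 4 gene lists of the log2 level minus the MEF mean (vertical axis) against the day of induction (horizontal axis), with 1 point per array for Thy1+ (orange squares), double-negative (black circles) and SSEA1+ cells (green triangles) and lines through the means of each day. In double-negative cells the mitotic list falls from 1.75 and 1.73 to 0.63 and 0.71, between the other fractions at day 6, while the immediate early list rises in all 3 fractions; days 9 and 12 have 1 array each.

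Some matrix genes of fibroblasts rose between day 3 and day 6, while most were not called. Of 28 measured proteoglycans and matricellular proteins, 7 rose and 1 fell (2.06% and 1.19% of all genes), with a median of 0.47. Postn, periostin of connective tissue, stood at 5.69 and 6.08 on the day 3 arrays and 9.24 and 8.60 on the day 6 arrays and rose by 3.03 (log2, SE 0.44, adjusted p = 0.000661). Aspn, the small leucine-rich proteoglycan asporin, stood at 4.53 and 4.70 on the day 3 arrays and 7.72 and 7.56 on the day 6 arrays and rose by 3.02 (log2, SE 0.22, adjusted p = 4.77e-06). The days were widely apart for both, and both day 6 levels stayed far below MEFs, at 12.62 and 12.74 for Postn and 11.61 and 11.76 for Aspn. Fmod, the collagen-binding proteoglycan fibromodulin, stood at 9.00 and 9.10 on the day 3 arrays and 10.95 and 11.12 on the day 6 arrays and rose by 1.98 (log2, SE 0.18, adjusted p = 2.01e-05), to above its MEF arrays (9.71 and 9.82). Ogn, Ccn5, Ccn2 and Dcn rose by 1.34, 1.43, 1.19 and 1.05, and the calls of Ccn2 and Dcn were lost when any 1 of the 4 arrays was left out. Vcan, the large proteoglycan versican, went the other way. It stood at 10.79 and 10.73 on the day 3 arrays and 9.51 and 8.66 on the day 6 arrays and fell by 1.67 (log2, SE 0.20, adjusted p = 0.00017). Sparc (0.11), Thbs2 (0.05) and Fn1 (−0.09) did not pass the test.

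Elastic fibre genes were divided. Of 21 measured, 4 rose and 1 fell (2.06% and 1.19% of all genes), and the median was −0.19. Eln, elastin, stood at 4.88 and 5.36 on the day 3 arrays and 7.86 and 7.76 on the day 6 arrays and rose by 2.69 (log2, SE 0.22, adjusted p = 9.32e-06). Mfap5, a microfibril protein, stood at 7.26 and 7.56 on the day 3 arrays and 9.24 and 8.82 on the day 6 arrays and rose by 1.62 (SE 0.30). Mfap2 and Ltbp4 rose by 1.01 and 1.08. Without the day 3 M2 array 2 of the 4 rose, since the calls of Mfap5 and Mfap2 were lost. The cross-linking enzymes did not follow the fibres. Loxl2 stood at 7.56 and 7.69 on the day 3 arrays and 6.41 and 5.79 on the day 6 arrays and fell by 1.53 (log2, SE 0.25, adjusted p = 0.00147), and Lox and Loxl1 showed −0.07 and −0.19. Of 25 collagens limma called 0, with a median of 0.13. At an unadjusted p under 0.05 3 were higher and 4 lower (21.4% of all genes in either direction). Col1a1 stood at 11.44 and 11.66 on the day 3 arrays and 11.94 and 11.68 on the day 6 arrays, a difference of 0.26 (SE 0.29), and Col6a2 had a difference of 0.79 (adjusted p = 0.0315), short of the fold. The list of 26 matrix proteases held 1 riser, the gelatinase Mmp2, at 1.12, a call lost without the M2 array of either day.

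Transcription factors and contractile genes of mesenchyme showed few calls. Of 31 measured factors, 2 rose and 1 fell (2.06% and 1.19% of all genes), with a median of 0.06. At an unadjusted p under 0.05 6 were higher and 4 lower (21.4% of all genes in either direction). Sox9, a factor of cartilage and of many progenitors, stood at 6.70 and 7.84 on the day 3 arrays and 9.14 and 9.09 on the day 6 arrays and rose by 1.84 (log2, SE 0.48, adjusted p = 0.0277). The day 3 arrays of Sox9 were more than 2-fold apart and its call was lost without the day 3 M2 array or either day 6 array. Runx1 rose by 1.16, a call lost without the day 6 M2 array and when its probe sets were averaged. Snai2, a repressor of epithelial genes, stood at 8.18 and 7.86 on the day 3 arrays and 7.07 and 6.70 on the day 6 arrays and fell by 1.14 (log2, SE 0.23, adjusted p = 0.00718), a call lost without the day 3 M2 or the day 6 M3 array. Its relative Snai1 stood at 5.67 and 5.52 on the day 3 arrays and 6.95 and 6.59 on the day 6 arrays, separate by day, but the difference of 1.17 did not pass the test (adjusted p = 0.0873). Prrx1 (−0.17), Zeb1 (0.37) and Twist2 (−0.60) did not pass the test either. Of 18 contractile smooth muscle genes 2 rose, against 2.06% of all genes. At an unadjusted p under 0.05 4 were higher and 0 lower, about the share of all genes (21.4% in either direction). Mylk, the myosin light chain kinase, stood at 6.83 and 7.20 on the day 3 arrays and 9.02 and 8.65 on the day 6 arrays and rose by 1.83 (log2, SE 0.27, adjusted p = 0.00067), and the light chain Myl9 rose by 1.13, while Acta2 (0.17) and Cnn1 (0.26) did not pass the test.

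**Figure D3:**
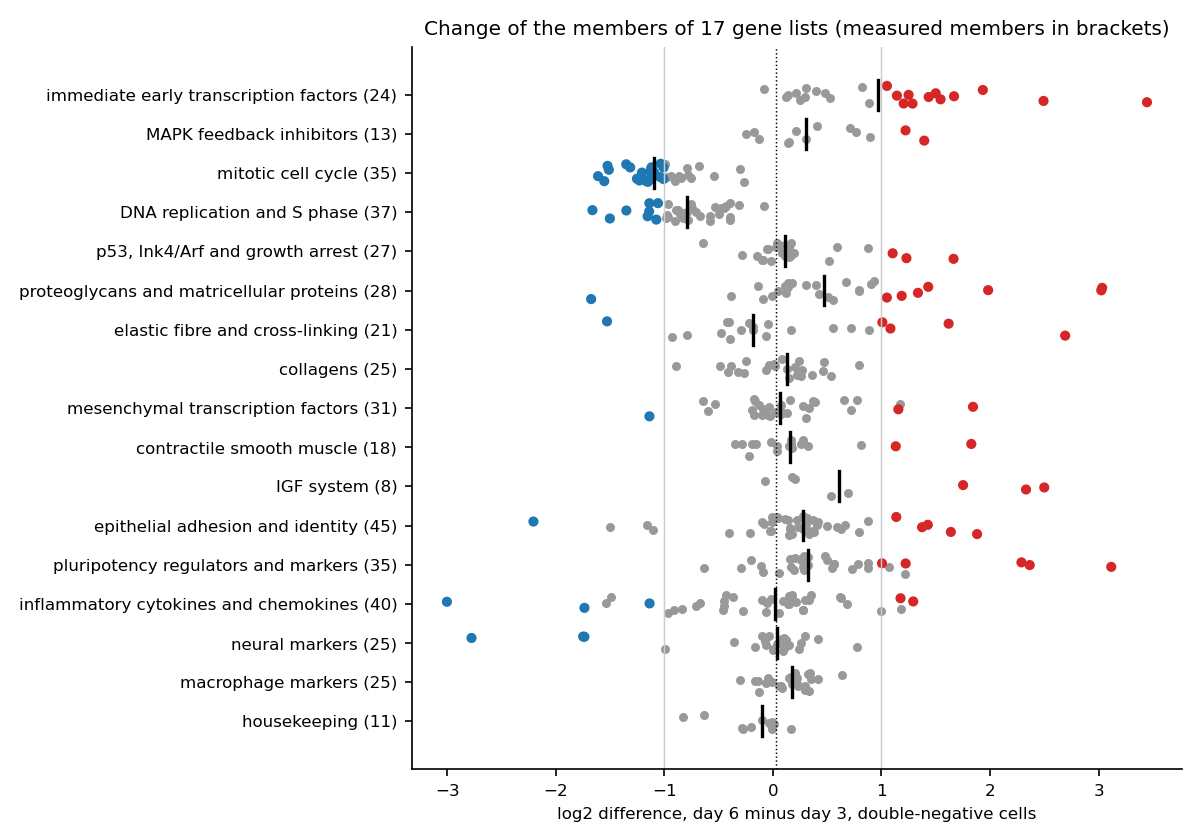
Log2 difference between day 6 and day 3 in double-negative cells (horizontal axis) for each measured member of 17 gene lists (vertical axis), red where a gene rose, blue where it fell and grey where it was not called; the bar is the list's median, the dotted line the median of all genes and the pale lines 2-fold. The mitotic list lies wholly below 0 with a median of −1.09 and the immediate early list almost wholly above 0 with a median of 0.97, while collagens and macrophage markers have no coloured point.

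Of the insulin-like growth factor system a few members rose. Of 8 measured members of the system, 3 rose (2.06% of all genes), and 7 were higher on both day 6 arrays (35% of all genes). At an unadjusted p under 0.05 4 were higher and 0 lower (21.4% of all genes in either direction). Igf2, the imprinted fetal growth factor, stood at 8.70 and 8.57 on the day 3 arrays and 11.09 and 11.18 on the day 6 arrays and rose by 2.50 (log2, SE 0.47, adjusted p = 0.00383). Igfbp5, a binding protein kept in the matrix, stood at 3.99 and 3.81 on the day 3 arrays and 6.56 and 5.90 on the day 6 arrays and rose by 2.33 (log2, SE 0.33, adjusted p = 0.000569). Igfbp2, a secreted binding protein, stood at 4.69 and 4.94 on the day 3 arrays and 6.35 and 6.78 on the day 6 arrays and rose by 1.75 (log2, SE 0.29, adjusted p = 0.00173). All 3 had been low at day 3 relative to MEFs, which stood at 11.97 and 12.05 for Igf2, 8.20 and 8.02 for Igfbp5 and 8.56 and 8.55 for Igfbp2. The receptor Igf1r (0.21, adjusted p = 0.43) and Igf1 (0.69, adjusted p = 0.05) were not called.

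Imprinted genes, a class defined by expression from 1 parental copy, were read as a list because Igf2 and Cdkn1c are both of this class. Both had been called already and are counted again here, so the count supports nothing about the class. Whether the members are expressed from 1 copy in these cells was not tested. Of 22 measured, 4 rose, with a median of 0.15, against 2.06% of all genes that rose. At an unadjusted p under 0.05 5 were higher and 2 lower (21.4% of all genes in either direction). The risers were Igf2, Cdkn1c and Dcn, all members of lists above as well, and the noncoding RNA Meg3. Meg3 stood at 9.68 and 9.86 on the day 3 arrays and 11.21 and 11.32 on the day 6 arrays and rose by 1.50 (log2, SE 0.31, adjusted p = 0.0077), to about the level of MEFs (10.83 and 11.35). The calls of Meg3 and Dcn were both lost without the day 3 M2 array or without the day 6 M3 array, which left 2 of the 4. Grb10 (−0.10), Plagl1 (0.18) and Rian (0.16), a neighbour of Meg3, did not pass the test, and Slc38a4 had a difference of −0.71 (adjusted p = 0.0141), short of the fold.

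Other secreted signals moved gene by gene. In the BMP list of 24 genes 3 rose, against 2.06% of all genes. These were the ligand Bmp4, by 1.07, and the target genes Id1 and Id4, by 1.09 and 1.03. Without the day 6 M2 array 0 of the 3 were called, and without any other of the 4 arrays 1 was. In the Wnt list of 32 genes 3 rose and 1 fell (2.06% and 1.19% of all genes). Dkk3, a secreted protein of the Dickkopf family, stood at 6.67 and 6.66 on the day 3 arrays and 8.61 and 8.35 on the day 6 arrays and rose by 1.82 (log2, SE 0.17, adjusted p = 2.37e-05). Dkk2 and Wnt16 rose by 1.47 and 1.11, and both lost the call when single arrays were left out. Sfrp2, a secreted Wnt antagonist, stood at 10.85 and 10.83 on the day 3 arrays and 9.75 and 8.58 on the day 6 arrays and fell by 1.68 (log2, SE 0.37, adjusted p = 0.0113), with the day 6 arrays more than 2-fold apart and the call lost without either day 3 array or without day 6 M3. Among 36 growth factors and receptors, Fgf18 stood at 7.80 and 7.91 on the day 3 arrays and 9.92 and 9.98 on the day 6 arrays and rose by 2.09 (log2, SE 0.25, adjusted p = 0.000155). Fgf7 and the Kit ligand Kitl fell by 1.40 and 1.18, and both calls were lost without the day 3 M2 or the day 6 M3 array. In this list 1 rose and 2 fell (2.06% and 1.19% of all genes). Of 22 genes of TGF-beta and activin limma called 0, and at an unadjusted p under 0.05 2 were higher and 0 lower, and 1 was called without the day 3 M2 array.

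Epithelial genes moved in both directions. Of 45 measured, 5 rose and 1 fell (2.06% and 1.19% of all genes), with a median of 0.28. Spint1, an inhibitor of surface serine proteases, stood at 6.01 and 6.06 on the day 3 arrays and 7.66 and 8.18 on the day 6 arrays and rose by 1.88 (log2, SE 0.20, adjusted p = 4.41e-05). Ehf, an ETS factor of epithelia, stood at 7.28 and 7.15 on the day 3 arrays and 8.80 and 8.91 on the day 6 arrays and rose by 1.64 (log2, SE 0.25, adjusted p = 0.000949). Grhl1, a grainyhead factor, stood at 6.46 and 6.30 on the day 3 arrays and 7.54 and 8.08 on the day 6 arrays and rose by 1.43 (SE 0.19). The days of these genes were separate, and on day 6 the M3 array was the higher of the pair in each. Spint2 and the desmosomal gene Pkp1 rose by 1.37 and 1.14, Pkp1 losing its call without the day 6 M3 array. Krt19, a keratin of simple epithelia, stood at 11.93 and 11.88 on the day 3 arrays and 9.78 and 9.62 on the day 6 arrays and fell by 2.21 (log2, SE 0.36, adjusted p = 0.00149), to a level still above MEFs (7.87 and 7.58). Krt8, Krt18 and Dsc2 were also lower on both day 6 arrays, at −1.50, −1.11 and −1.16, and did not pass the test (adjusted p = 0.0851, 0.175 and 0.0984). The list had 4 genes that fell instead of 1 when only these groups were fitted, and 2 without the day 6 Thy1+ M2 array. E-cadherin, Cdh1, stood at 6.49 and 6.37 on the day 3 arrays and 7.10 and 7.50 on the day 6 arrays, a difference of 0.87 that passed the test (adjusted p = 0.0371) and not the fold. Epcam stood at 5.26 and 5.55 on the day 3 arrays and 6.14 and 6.27 on the day 6 arrays, a difference of 0.80 (adjusted p = 0.06). Of 31 stratified epidermal genes limma called 0, with 2 higher and 4 lower at an unadjusted p under 0.05.

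A handful of pluripotency genes rose while the core of the network stayed low. Of 35 measured, 5 rose and 0 fell (2.06% and 1.19% of all genes), with a median of 0.32. On both day 6 arrays 24 were higher (35% of all genes). At an unadjusted p under 0.05 13 were higher and 0 lower, beside 21.4% of all genes in either direction. Tfap2c, the AP-2 gamma factor of trophoblast, germ cells and naive pluripotent cells, stood at 5.83 and 6.36 on the day 3 arrays and 9.07 and 9.35 on the day 6 arrays and rose by 3.12 (log2, SE 0.22, adjusted p = 3.57e-06). Fbxo15, an F-box gene used as an early reporter of reprogramming, stood at 6.84 and 7.17 on the day 3 arrays and 9.08 and 9.65 on the day 6 arrays and rose by 2.37 (log2, SE 0.35, adjusted p = 0.00067). Jam2, a junctional adhesion molecule of pluripotent cells, stood at 6.42 and 5.99 on the day 3 arrays and 8.42 and 8.57 on the day 6 arrays and rose by 2.29 (log2, SE 0.16, adjusted p = 3.57e-06). These 3 kept the call when each array was left out. Tfcp2l1 and Eras rose by 1.22 and 1.00, and both calls were lost when any 1 of the 4 arrays was left out and under quantile normalization, which left 3 of the 5.

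The late genes of the network differed between the day 6 arrays. Nanog stood at 4.07 and 4.47 on the day 3 arrays and 4.41 and 5.69 on the day 6 arrays, and its difference of 0.78 did not pass the test (adjusted p = 0.291). Sall4 stood at 4.60 and 5.02 on the day 3 arrays and 5.32 and 6.74 on the day 6 arrays (1.22, adjusted p = 0.116) and Dppa5a at 5.40 and 5.51 on the day 3 arrays and 5.62 and 7.42 on the day 6 arrays (1.07, adjusted p = 0.378). In these 3 genes the M3 array of day 6 was more than 2-fold above M2, which lay close to the day 3 arrays for Dppa5a and within their range for Nanog. Zfp42 (3.25 and 3.09 on the day 3 arrays and 3.25 and 3.42 on the day 6 arrays) and Esrrb (4.72 and 4.50 on the day 3 arrays and 4.45 and 5.10 on the day 6 arrays) were low throughout, with Esrrb again highest on day 6 M3. Of the reprogramming factors themselves, Klf4 stood at 9.29 and 9.62 on the day 3 arrays and 10.80 and 10.65 on the day 6 arrays and rose by 1.26 (log2, SE 0.17, adjusted p = 0.000385), near its mean MEF level (10.94). Myc, Sox2 and Pou5f1 (Oct4) had differences of −0.32, 0.57 and 0.63 that did not pass the test. These genes are also in the cassette, and whether their probe sets read it was not tested.

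The genes that fell most included chemokines and genes of the neuronal cytoskeleton. Cxcl5, a neutrophil chemokine, stood at 9.89 and 9.16 on the day 3 arrays and 6.90 and 6.15 on the day 6 arrays and fell by 3.00 (log2, SE 0.40, adjusted p = 0.000311). Ccl20, a chemokine of lymphocytes and dendritic cells, stood at 7.07 and 6.80 on the day 3 arrays and 5.36 and 5.04 on the day 6 arrays and fell by 1.74 (log2, SE 0.25, adjusted p = 0.000612). The inflammatory list moved in both directions. Of its 40 genes 3 fell and 2 rose (1.19% and 2.06% of all genes), with a median of 0.02. At an unadjusted p under 0.05 10 were lower and 6 higher (21.4% of all genes in either direction). Vcam1 fell by 1.14 and Cxcl2 and Cxcl12 rose by 1.29 and 1.18, and these 3 calls were each lost when 1 of the arrays was left out. Without the day 6 M2 array 5 of the list fell and 1 rose, and 5 also fell without the day 6 Thy1+ M2 array or with only these groups in the fit. Ptx3, a soluble pattern recognition protein, stood at 11.35 and 11.14 on the day 3 arrays and 9.82 and 9.09 on the day 6 arrays and fell by 1.79 (log2, SE 0.34, adjusted p = 0.00447), a call lost without day 3 M2 or day 6 M3.

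Of 25 neural markers 3 fell, against 1.19% of all genes that fell. At an unadjusted p under 0.05 4 were lower and 1 higher, about the share of all genes (21.4% in either direction). Nefl, the neurofilament light chain, stood at 8.03 and 7.73 on the day 3 arrays and 4.91 and 5.30 on the day 6 arrays and fell by 2.78 (log2, SE 0.32, adjusted p = 0.000116). Stmn2, a microtubule regulator of growing neurites, stood at 11.54 and 11.40 on the day 3 arrays and 9.71 and 9.77 on the day 6 arrays and fell by 1.74 (log2, SE 0.15, adjusted p = 1.03e-05). Tubb3, the neuronal beta tubulin, stood at 7.77 and 7.79 on the day 3 arrays and 6.08 and 5.98 on the day 6 arrays and fell by 1.75 (log2, SE 0.33, adjusted p = 0.0042). The median of the list was 0.04, and Sox1 (−0.17), Pax6 (0.09) and Map2 (0.12) did not pass the test. Car13, a cytosolic carbonic anhydrase, fell by 2.08, Steap1, a membrane protein, by 1.74 with an SE of only 0.13, and S100a4, a calcium-binding protein of motile fibroblasts, by 1.69. Eva1a, an endosomal and lysosomal membrane protein, Stac2, an adaptor protein, and Nabp1, which binds single-stranded DNA, fell by 1.86, 1.73 and 1.69. Depdc1a, a gene of dividing cells, fell by 1.71, a call lost when any 1 of the 4 arrays was left out.

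The largest rise of all was in Tac2, the precursor of the neuropeptide neurokinin B. It stood at 5.52 and 5.38 on the day 3 arrays and 9.92 and 10.56 on the day 6 arrays and rose by 4.79 (log2, SE 0.26, adjusted p = 4.6e-07). MEFs stood at 3.53 and 3.54, so its level on day 6 was far above the starting cells. Egfl6, a secreted protein with EGF repeats, stood at 3.74 and 3.88 on the day 3 arrays and 7.59 and 7.35 on the day 6 arrays and rose by 3.66 (log2, SE 0.22, adjusted p = 9.84e-07), returning toward MEFs (8.54 and 8.73). Per2, a repressor of the circadian clock, stood at 4.54 and 4.79 on the day 3 arrays and 7.90 and 7.95 on the day 6 arrays and rose by 3.26 (log2, SE 0.28, adjusted p = 1.03e-05). The day 6 arrays of Per2 nearly coincided and lay far from both day 3 arrays. Itih5, which binds hyaluronan in the matrix, rose by 2.80, Cacna1d, a subunit of a voltage-gated calcium channel, by 2.76, and Chdh, choline dehydrogenase, by 2.72. Sult1a1, a phenol sulfotransferase, rose by 2.65 and Atp12a, a proton-potassium pump, by 2.63. Lrmp, a lymphoid-restricted membrane protein, stood at 5.44 and 5.39 on the day 3 arrays and 7.67 and 8.60 on the day 6 arrays and rose by 2.72 (log2, SE 0.28, adjusted p = 4.05e-05). Dner, a membrane protein with EGF repeats, rose by 2.64, a call lost without day 6 M3.

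Metabolic and stress lists had few called genes. Of 23 glycolytic genes 2 rose, against 2.06% of all genes. These were the isozymes Eno2, by 2.41 (log2, SE 0.27, adjusted p = 8.77e-05), and Aldoc, by 1.37 (log2, SE 0.19, adjusted p = 0.000478), while the list's median was −0.20. Of 56 genes of oxidative phosphorylation limma called 0. At an unadjusted p under 0.05 9 were lower and 0 higher, a smaller share than the 21.4% of all genes. Yet 46 of the 56 were lower on both day 6 arrays (31.3% of all genes), with a median of −0.17. Limma also called 0 of 26 genes of ribosome biogenesis. Unadjusted, 6 of these were lower and 0 higher, about the share of all genes (21.4% in either direction). On both day 6 arrays 21 were lower (31.3% of all genes). Limma called 0 of 23 genes of lysosome and autophagy (4 higher, 1 lower), of which 16 were higher on both day 6 arrays (35% of all genes). Of 12 heat shock genes it called 0 (2 higher, 1 lower). Of 21 genes of cholesterol and fatty acid synthesis, 18 were lower on both day 6 arrays (31.3% of all genes), with a median of −0.39, and 1 fell, the farnesyl diphosphate synthase Fdps, at 9.63 and 9.61 on the day 3 arrays and 8.49 and 8.32 on the day 6 arrays. Of 24 genes of the unfolded protein and amino acid response 3 fell and 1 rose (1.19% and 2.06% of all genes). Pdia4, Sdf2l1 and Phgdh fell by 1.51, 1.12 and 1.47, and their calls were lost without the day 3 M2 or without the day 6 M3 array. The riser also lost its call when single arrays were left out. Of 29 interferon response genes 1 rose and 1 fell. Oas2 rose by 1.68 and Ifit2 fell by 1.17, the second a call lost without the day 6 M3 array. Of 33 Hox genes limma called 0, with 1 higher and 1 lower at an unadjusted p under 0.05.

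Markers of other cells were read for what the gate could hold. Of 25 macrophage markers limma called 0 (2 higher and 0 lower at an unadjusted p under 0.05), and it called 0 of 16 endoderm markers (1 and 1), 0 of 9 erythroid markers (2 and 1) and 0 of 18 germline genes (3 and 0). The mean log2 level of the macrophage list was 4.51 and 4.53 at day 3 and 4.59 and 4.75 at day 6. Ptprc, the pan-leukocyte antigen, stood at 3.05 and 3.09 on the day 3 arrays and 3.14 and 2.99 on the day 6 arrays, near the floor of the array. Of 17 endothelial markers 1 rose, Plvap, by 1.45, a call lost without any 1 of the 4 arrays, and Pecam1 showed 0.22. Skeletal muscle (Mef2c and Tnnt1 of 28) and cartilage or bone (Sox6, Sox9 and Cnmd of 18) had 2 and 3 risers, against 2.06% of all genes. Without the day 3 M2 array these counts were 0 and 1. Fabp4 of 15 adipocyte markers and Gjb5 of 20 trophoblast markers fell, with 3 trophoblast markers instead of 1 when only these groups were fitted, and Tfap2c is also a trophoblast marker. Of 11 housekeeping genes limma called 0, with a median of −0.10, and at an unadjusted p under 0.05 2 were lower.

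The change of double-negative cells was then set against that of the SSEA1+ cells over the same days. In SSEA1+ cells 213 genes were called (1.8%), 171 up and 42 down. Of the 243 that rose in double-negative cells, 136 also rose in SSEA1+ cells, 56.0% of the first list and 79.5% of the second. Of the 140 that fell, 34 also fell in SSEA1+ cells, 24.3% and 81.0% of the lists. All 383 had the same sign in both. No gene passed the test of the difference between the 2 changes by limma (smallest adjusted p = 0.402), and 345 had an unadjusted p under 0.05 (2.92%). The latter count was 211 without the day 3 double-negative M2 array and 1084 in a fit of only these groups. In simulated data of the same size, 200 genes were given changes that differed between the fractions. The test called 86.5% of them at a difference of 1.5 on the log2 scale and 32.5% at 1. By the adjusted p alone the shares were 87% and 37.5%. A difference of the smaller size could often be missed. The shares depend on how many genes differ, and with fewer than 200 they could be lower.

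The intervals of that difference show what the arrays could resolve. For Tac2 the change was 4.79 in double-negative and 4.72 in SSEA1+ cells, a difference of 0.06 with a 95% interval of −0.71 to 0.84. For Fosb it was 3.44 against 2.30 (−0.09 to 2.38), and for Per2 3.26 against 1.87 (0.55 to 2.24). The change of Pkp1 was 1.14 against 2.39, a difference of −1.25 (−1.73 to −0.77), and that of the stem cell factor receptor Kit 0.57 against 1.53, a difference of −0.97 (−1.59 to −0.34). These intervals are for single genes without adjustment, and none of the differences passed over all genes. Mitotic genes had a median of −1.09 in double-negative and −0.42 in SSEA1+ cells, and 20 of the 35 had an unadjusted p under 0.05 for a more negative change in double-negative cells, with 0 the other way and 0 called. For Plk1 the changes were −1.51 and −0.63, a difference of −0.88 (−1.31 to −0.46).

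In Thy1+ cells the change was larger, with 1077 genes called (9.12%), 538 up (4.56%) and 539 down (4.57%). Of the 243 that rose in double-negative cells 176 also rose in Thy1+ cells, 72.4% and 32.7% of the lists, and of the 140 that fell 117 also fell, 83.6% and 21.7%. None of the 383 was called in the opposite direction in Thy1+ cells. The test of the difference called 52 genes (0.44%), 45 with a change higher in double-negative cells (0.381%) and 7 lower (0.0593%). The 45 held 16 of the 35 mitotic genes and 3 of the 37 replication genes. Cenpe, a kinesin of the kinetochore, fell by 1.12 in double-negative cells and showed −3.63 in Thy1+ cells, a difference of 2.51 (SE 0.37, adjusted p = 0.00798). Pclaf, a PCNA-binding protein, showed −1.22 and −3.51, a difference of 2.29 (SE 0.32, adjusted p = 0.00679). Mki67 (2.20), the spindle gene Aspm (2.07) and the checkpoint kinase Ttk (2.04) followed.

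Among the 7 lower were 2 genes of the elastic fibre list. Eln rose by 2.69 in double-negative and by 4.37 in Thy1+ cells, a difference of −1.68 (SE 0.31, adjusted p = 0.0265). Bmp4 rose by 1.07 and 2.83, a difference of −1.76 (SE 0.35, adjusted p = 0.0497). The microfibril gene Mfap4 (−1.74), the filamin-binding gene Rflnb (−1.71) and the extracellular superoxide dismutase Sod3 (−1.45) followed. In 35 of 35 mitotic genes the change was lowest in Thy1+, intermediate in double-negative and highest in SSEA1+ cells, an order found in 23.58% of all genes. At day 6 the median mitotic level relative to MEFs was −0.62 and −0.61 in Thy1+, 0.63 and 0.71 in double-negative and 1.67 and 1.59 in SSEA1+ cells, with no overlap between the fractions.

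The count of 52 depended on single arrays. It was 0 without the day 3 double-negative M2 array and 0 without the day 3 Thy1+ M3 array, 19 without day 3 double-negative M3, 25 without day 3 Thy1+ M2, 41 and 18 without day 6 double-negative M2 and M3, and 74 without day 6 Thy1+ M2. Without day 6 Thy1+ M3 it was 1673, and it was 0 in a fit of these 4 groups alone. The day 6 Thy1+ M2 array had 3′ to 5′ differences of 1.487 for Actb and 1.78 for Gapdh, against 0.791 and 0.934 on M3. Without this array in any fit the change of double-negative cells gave 409 called genes instead of 383, and the difference from SSEA1+ cells still gave 0, with 668 genes instead of 345 at an unadjusted p under 0.05.

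**Figure D4:**
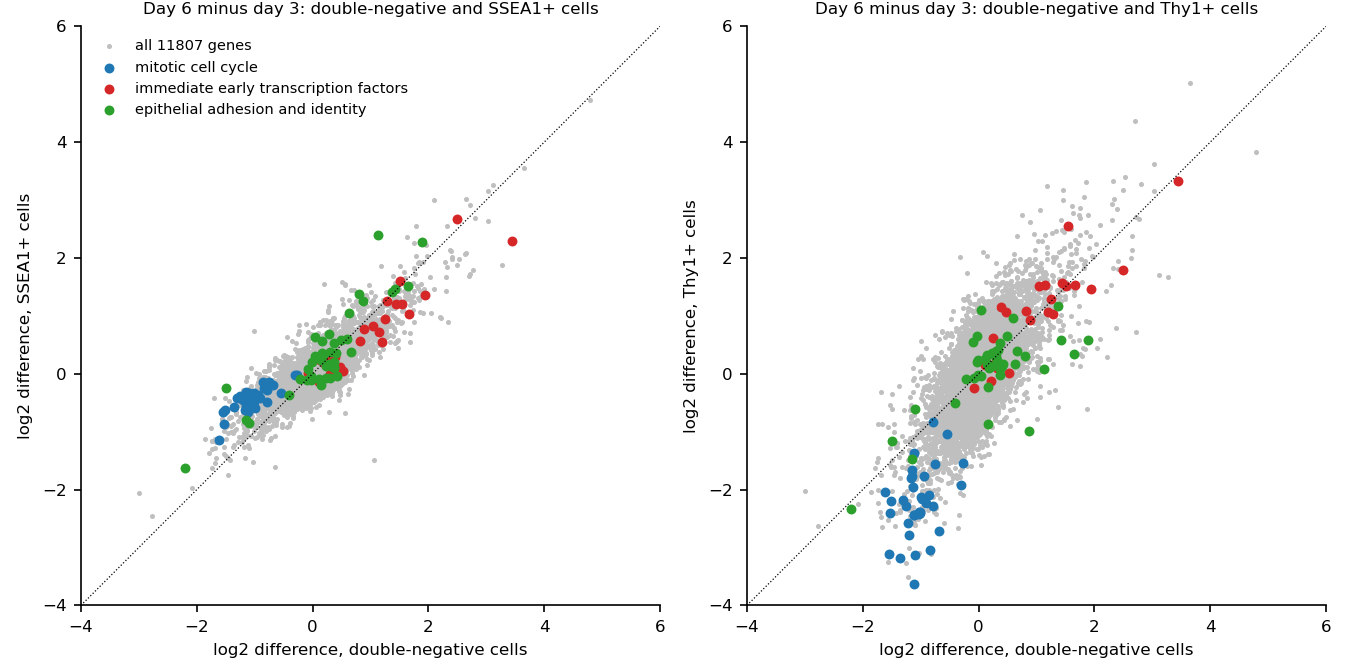
Log2 difference between day 6 and day 3 in SSEA1+ cells (left, vertical axis) and Thy1+ cells (right, vertical axis) against that in double-negative cells (horizontal axis), 1 point per gene, with the mitotic list in blue, immediate early genes in red and epithelial genes in green; the dotted line marks equal change. Mitotic genes lie above the line on the left and below it on the right, with medians of −1.09 in double-negative, −0.42 in SSEA1+ and −2.23 in Thy1+ cells.

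Other lists are set side by side here. Immediate early genes had medians of 0.97 in double-negative, 0.64 in SSEA1+ and 1.08 in Thy1+ cells, and limma called 0 of 24 in either test of the difference (at an unadjusted p under 0.05 1 was higher than in SSEA1+ cells and 3 lower than in Thy1+ cells, against 9.91% of all genes in the latter). Proteoglycans had medians of 0.47, 0.35 and 0.79. MAP kinase feedback genes had 0.31, 0.19 and 1.09 and the IGF system 0.61, 0.48 and 1.33, but the day 6 Thy1+ arrays stood apart in both lists. Their median level relative to MEFs was 0.67 on M2 and −0.07 on M3 for the feedback genes, and −0.48 and −1.20 for the IGF system. Cdh1 had changes of 0.87 in double-negative, 1.26 in SSEA1+ and −0.99 in Thy1+ cells. Tfap2c showed 3.12, 3.25 and 1.71, and Fbxo15 2.37, 2.13 and 0.78. Across all 11807 genes the changes of double-negative and SSEA1+ cells correlated at 0.825 and those of double-negative and Thy1+ cells at 0.723, as a description over genes that share the normalization of the arrays.

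The later double-negative arrays, 1 of day 9 and 1 of day 12, show where the called genes stood afterwards, with no test. Of the 243 that rose, the day 9 array was nearer to day 6 than to day 3 in 218 and the day 12 array in 225. Of the 140 that fell, the numbers were 99 and 117. The genes were chosen on the same day 3 and day 6 arrays, and the share over all genes is not given here. Fosb stood at 8.44 on day 9 and 9.75 on day 12, Aspn at 7.58 and 8.52, and Igf2 at 11.67 and 11.62. Tac2 went on to 11.43 and 11.47, Tfap2c to 10.97 and 10.47, and Spint1 to 9.15 and 9.79. Cdh1 reached 8.71 and 9.61, Epcam 7.70 and 9.35, and Nanog 6.98 and 8.18, all above both day 6 arrays. Krt18 stood at 5.90 and 11.03 and Krt8 at 6.18 and 10.42, low at day 9 and high at day 12.

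Set against uninduced fibroblasts, the changes ran in part back toward the start. Of the 243 genes that rose, 80 had been at least 2-fold below the MEF mean at day 3 and 55 at least 2-fold above it, and 71 were within 2-fold of MEFs at day 6. Of the 140 that fell, 76 had been at least 2-fold above MEFs at day 3 and 18 at least 2-fold below, and 82 were within 2-fold at day 6. These counts share the day 3 and day 6 arrays that chose the genes and are given as a description, without the shares over all genes. Postn, Aspn, Eln, Igf2 and Fosb belonged to the first kind of riser, low at day 3 and higher in MEFs, while Tac2, Tfap2c, Fbxo15 and Atp12a rose away from MEFs.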

How the data were processed

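The series was measured on Affymetrix 3′ expression arrays, and the table of 24 arrays was used; the 4 arrays of SSEA1+ cells split by EpCAM are in another table and were not used here. The deposited values are log2 signals of probe sets after RMA by the authors, per the submitters' processing notes, with no version given; the background model and the arrays normalized together are not given in the sources used here. Array medians lay between 6.835 and 6.988, and no raw intensities were used. Of 22716 probe sets 18003 carried 1 gene symbol, 287 several and 4426 none (90 controls included); those with 1 symbol were kept, 17977 matched the RefSeq gene table, and the probe set of highest mean stood for its gene (11807 genes).

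Groups came from the labels. The fit used limma 3.58.1 in R 4.3.3 on all 24 arrays with 15 group means (9 residual degrees of freedom). The other replicated groups thus lend their spread, and groups of 1 array add none. A call needed a 2-fold difference and an adjusted p (Benjamini-Hochberg, all 11807 genes) under 0.05; unadjusted counts use 0.05 and intervals are 95%. The difference between fractions was tested as a contrast of changes. Named genes were the 15 largest called changes each way with no overlap between days, the 5 largest each way between fractions, and any list member. The number of arrays limits the precision. Members, lists and tests were chosen with earlier results of these data known. M2 and M3 were not treated as pairs. In simulated data with 200 changed genes the main comparison called 51% of log2 changes of 1, a size at the fold limit itself, and 97.5% of 1.5. By the adjusted p alone it recovered 84.5% and 98%. Tables and figures used Python 3.11.15 with pandas 2.3.3 and matplotlib 3.10.9.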

Additional observations from a re-analysis of the deposited data

Results flagged for a closer look

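The change from day 3 to day 6 was tested for a difference between double-negative and Thy1+ cells, and 52 genes passed. The 5 with the most negative difference, where the rise was smaller in double-negative cells, were Bmp4 (−1.76 on the log2 scale), Mfap4 (−1.74), Rflnb (−1.71), Eln (−1.68) and Sod3 (−1.45). The 5 with the most positive difference, where the change in Thy1+ cells was the more negative, were Cenpe (2.51), Pclaf (2.29), Mki67 (2.20), Aspm (2.07) and Ttk (2.04). Bmp4 and Rflnb passed narrowly (adjusted p = 0.0497 and 0.0499). None of these 10 kept its call under every alternative tried.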

How the results depend on the processing

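The count of 383 genes called between day 3 and day 6 was 349 to 414 under other normalizations, the mean of probe sets, no dim genes, another variance prior or only these groups in the fit, 1078 with no minimum fold, and 284 to 374 when each of the 4 arrays was left out. With the replicate name as a block it was 384, against SSEA1+ cells it was 0 and against Thy1+ cells 52, of which 46 were shared with the fit without the block; M3 minus M2 differences of the day 3 and day 6 arrays correlated at 0.062 and between −0.207 and 0.214 over 21 pairs of groups, so the names were not shown to pair the arrays. Of the 30 genes of largest change, 26 kept the call under all 13 settings tried on them, Ptx3, Depdc1a, Sfrp2 and Dner lost it only when an array was left out, and none of 151 named genes changed sign. The difference from SSEA1+ cells gave 0 genes under every alternative. The difference from Thy1+ cells gave 45 to 55 genes under most settings, 0 with only these groups in the fit, and 0 to 1673 when an array was left out; the cause was not tested. Genes near the array's background, such as Ptprc, allow only a bound on change, and 2 arrays per group limit what can be seen below 2-fold.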

Other observations

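Genes of the circadian clock formed a list that was written after the values had been seen, because Per2 was among the largest risers, so its count supports nothing. Of 20 measured, 8 rose in double-negative cells, with a median of 0.86. Besides Per2 (3.26) these were Rora (1.67), a nuclear receptor that activates clock genes, Per3 (1.63), Dbp (1.55), a transcription factor driven by the clock, Npas2 (1.40), Cry2 (1.34), Cry1 (1.28) and Per1 (1.15). Dbp stood at 7.17 and 7.49 on the day 3 arrays and 8.90 and 8.85 on the day 6 arrays, and Arntl, the partner of Clock, at 8.11 and 8.06 on the day 3 arrays and 7.74 and 7.76 on the day 6 arrays. Dbp was higher on both day 6 arrays, and Arntl was lower on both (−0.34, adjusted p = 0.649). Npas2 and Per3 were not called with the mean of their probe sets, and Per1 and Per3 lost the call when single arrays were left out. In SSEA1+ cells 4 of the list rose and in Thy1+ cells 6, with medians of 0.53 and 0.56. The time of day of each harvest is not stated in the labels.

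Notch pathway genes were listed in the same way after Dner was seen, so their counts support nothing either. Of 25 measured, 3 rose (2.06% of all genes), with a median of 0.43. On both day 6 arrays 21 were higher, beside 35% of all genes. Of the risers, Hey1 and Nrarp kept the call when each array was left out. Hey1, a transcriptional target of Notch, stood at 8.95 and 9.66 on the day 3 arrays and 11.23 and 11.10 on the day 6 arrays and rose by 1.86 (log2, SE 0.24, adjusted p = 0.000229). Nrarp, a target that feeds back on the pathway, stood at 8.46 and 8.75 on the day 3 arrays and 10.58 and 10.46 on the day 6 arrays and rose by 1.91 (log2, SE 0.29, adjusted p = 0.000921). Both were separate by day and far above MEFs, at 6.61 and 6.38 for Hey1 and 4.55 and 4.72 for Nrarp. On the day 9 array Hey1 stood at 8.09 and Nrarp at 9.60, both below day 6. Other members came near the threshold. The ligand Jag1 passed the adjusted p (0.0396) but lay just under the 2-fold limit, and the target Hey2 (1.22) did not pass it (adjusted p = 0.0986).

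The 2 double-negative arrays of day 6 differed at least 2-fold in 11 genes, those of day 3 in 2 (Ammecr1 and Sox9). On day 6 the M3 array was higher in Dppa5a (1.81), Sall4 (1.42) and Nanog (1.27), which are pluripotency genes. It was lower in Adam12 (−1.50), Il6 (−1.43), Plac8 (−1.27), Pla2g4a (−1.24), Ahr (−1.21), Sfrp2 (−1.17), Srpx (−1.14) and Nfia (−1.04). Thy1, a sorting marker, was lower on M3 as well, at 9.61 against 10.46. These genes were picked for their difference between the arrays, and the 2 arrays give no test of it.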
